A study of Homo sapiens with 6 samples.

Results

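The transcription factor genes FOXD3, ETS1, ETS2, MYB, MYC and MYCN were followed through the induction of neural crest from human embryonic stem cells. They were picked by name from a table of 23284 genes, under the working description of genes that dip midway, and all 6 were found and tested in each comparison. The values that led to their choice are the same ones reported below, so for these 6 genes levels and calls are descriptions and not tests. Only FOXD3 and ETS1 of the 6 went down and came back up. ETS2, MYB and MYC went down and stayed low, and MYCN was lower only on day 5, so a shared dip on day 3 is not what these data show for all of them.

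All groups came from wildtype cells of WA01, an established line of human embryonic stem cells. The 6 libraries make 3 groups of 2. The ES group is the stem cells of day 0, the preNC group was taken as pre-neural crest after 3 days, and the NC group as neural crest after 5 days. The growth protocol, which the labels repeat for every library including day 0, has cells plated at 20000 per cm2 on Matrigel with 3 µM of CHIR99021, a GSK3 inhibitor that switches on WNT/beta-catenin signalling, and 10 µM of the ROCK inhibitor Y-27632 at the start. Poly-adenylated RNA was sequenced, and the deposited table gives 1 FPKM (fragments scaled for library size and the length of the transcript) for each group of each gene.

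Because each group has 1 combined value, the spread between its 2 libraries cannot be shown and the depth of the libraries is unknown. A number after ± is the standard error of a log2 ratio implied by the authors' deposited test statistic. Genes count as called, higher or lower, when the q that the authors' deposited table gives is under 0.05. Nothing in the labels says whether the 2 libraries of a group came from separate cultures, so these errors may hold technical spread alone. In bulk RNA, fewer cells with a transcript and less transcript per cell cannot be told apart. The group labels matched their markers in part. By call, 8 of 10 pluripotency genes were lower on day 5 than on day 0 (14.7% of all tested genes). Of 26 other neural plate border and neural crest genes, 19 were called higher (12.2% of all tested genes) and 2, SNAI1 and KIT, lower. Of these 26, 24 were at an FPKM of at least 1 on day 5, against 11 on day 0.

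FOXD3 is a forkhead factor known both for keeping embryonic stem cells undifferentiated and, later, for specifying neural crest and restraining its differentiation. ETS1 and ETS2 are the founding members of the ETS family, which bind GGAA cores and are phosphorylated downstream of RAS and ERK. ETS1 is known in cranial neural crest and in endothelium. MYC and MYCN are basic helix-loop-helix factors that pair with MAX, bind E-boxes and drive ribosome production and growth, and MYB is best known from blood progenitors.

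**Figure D1:**
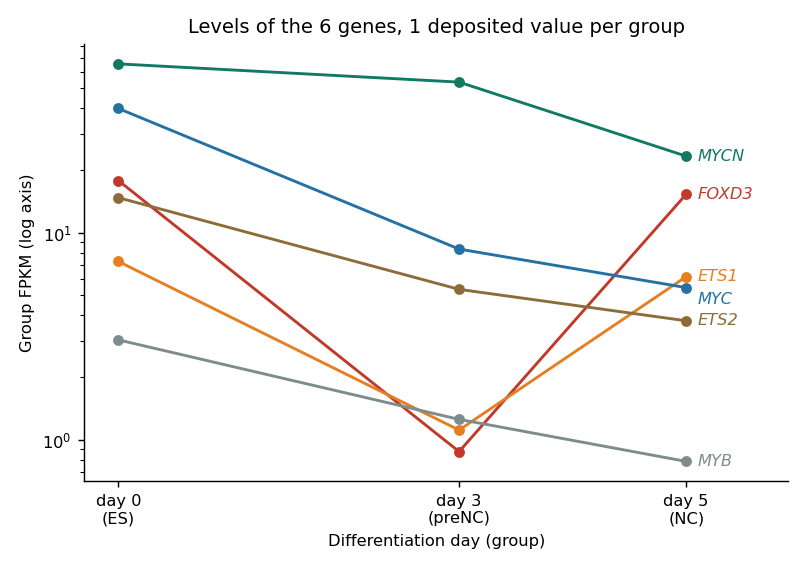
Group FPKM (log axis) of the 6 genes against differentiation day, with 1 deposited value per group and no error bar. FOXD3 and ETS1 form a V, from 17.9 and 7.27 down to 0.876 and 1.11 and back to 15.4 and 6.14, while the other 4 lines go down from left to right.

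The FPKM of FOXD3 was 17.9 in stem cells, 0.876 on day 3 and 15.4 on day 5, so that day 3 stood apart from both other groups. The day 3 value was 20.4-fold below day 0 (log2 -4.35 ± 0.35), and the day 5 value 17.5-fold above day 3 (log2 4.13 ± 0.43). On day 5 the transcript was back at 85.9% of its stem cell level, a difference (log2 -0.22 ± 0.34) smaller than its error. Ranked by FPKM, the gene was number 4703 in the table on day 0, 13499 on day 3 and 5168 on day 5. The gene lies on chromosome 1 from 63788730 to 63790797 (hg19), and no other gene of the table overlaps it. Of the 8 other FOXD genes, FOXD1 was the 1 that could be tested, at 0.761, 0.276 and 0.386 without a call, and the others reached at most 0.144 in any group.

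The upstream sequence of FOXD3 is shown because this gene had the deepest dip among the 175 genes called lower and then higher, with the smaller of fall and rise as depth. No gene of the 175 was listed at 0 in a group, so all of them have such a depth. The 250 bases before the start site (RefSeq, build GRCh38.p14, chr1:63322317-63322566, plus strand) run 5′ to 3′ as follows, with capitals marking a CACGTG E-box, the element that MYC/MAX dimers and related factors bind.
FOXD3: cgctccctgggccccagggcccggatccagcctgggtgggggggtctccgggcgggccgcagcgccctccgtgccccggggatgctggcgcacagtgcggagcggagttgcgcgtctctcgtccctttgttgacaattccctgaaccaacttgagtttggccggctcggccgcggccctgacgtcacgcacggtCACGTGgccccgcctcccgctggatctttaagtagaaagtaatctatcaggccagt

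The E-box lies at positions -56 to -51 from the start site and reads the same on both strands. It was found in 6.34% of 35116 RefSeq windows of this length, and in 4.57% of 197 windows of genes that dipped, FOXD3 included. A match of this kind describes the letters and not binding.

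For ETS1 the FPKM values were 7.27 in stem cells, 1.11 on day 3 and 6.14 on day 5. It was 6.53-fold lower on day 3 than on day 0 (log2 -2.71 ± 0.48) and 5.51-fold higher on day 5 than on day 3 (log2 2.46 ± 0.55). At 84.5% of the day 0 level on day 5, its difference from day 0 (log2 -0.24 ± 0.42) was smaller than its error. The gene spans 128328656 to 128457453 on chromosome 11 (hg19).

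ETS2, its closest relative, did not come back. Its FPKM went from 14.8 in stem cells to 5.33 on day 3 and 3.76 on day 5, which is 25.4% of the starting level (log2 -1.98 ± 0.42 from day 0 to day 5). The step from day 3 to day 5 (log2 -0.50 ± 0.48) was about the size of its error. The pair therefore changed order. ETS2 exceeded ETS1 2.03-fold on day 0 and 4.79-fold on day 3, whereas on day 5 ETS1 made up 62.0% of their summed FPKM. ETS2 lies on chromosome 21 (40177231 to 40196878, hg19).

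MYC, on chromosome 8 (128748315 to 128753680, hg19), went from an FPKM of 39.9 in stem cells to 8.34 on day 3 and 5.43 on day 5. Most of the difference lay in the opening step, which was 4.78-fold (log2 -2.26 ± 0.36). The later step (log2 -0.62 ± 0.41) was not called, and day 5 stood at 13.6% of day 0, the lowest share among the 6 genes.

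MYCN kept another schedule. It had the highest FPKM of the 6 genes in every group, at 65.5 in stem cells, 53.5 on day 3 and 23.5 on day 5. The step to day 3 (log2 -0.29 ± 0.38) was within its error, and the step to day 5 was 2.28-fold down (log2 -1.19 ± 0.37). MYCN (chromosome 2, 16080020 to 16087129, hg19) shares its locus with the antisense transcript MYCNOS, listed at 2.92, 2.51 and 1.29. Whether the counting used strand is not given in the sources used here, so reads of the pair may be mixed.

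Because MYC and MYCN moved at different times, the make-up of the MYC family changed. The summed FPKM of MYC, MYCN and MYCL1 went from 120.4 in stem cells to 75.8 on day 3 and 37.1 on day 5. MYCN held 54.4% of that sum in stem cells, 70.5% on day 3 and 63.3% on day 5. MYC held 33.1%, 11% and 14.7%. MYCN exceeded MYC 1.64-fold on day 0 and 6.41-fold on day 3.

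**Figure D2:**
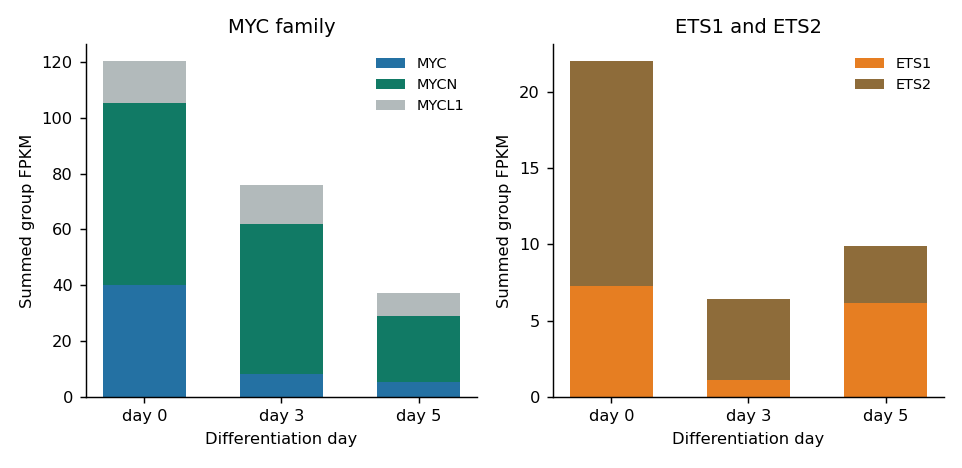
Stacked group FPKM of MYC, MYCN and MYCL1 (left) and of ETS1 and ETS2 (right) on each day, with 1 deposited value per gene and group and no error bar. The MYC share of its family shrinks from 33.1% to 11% by day 3 while the MYCN part stays tall, and on day 5 the ETS1 part (6.14) exceeds the ETS2 part (3.76).

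MYB was the weakest of the 6 on days 0 and 5, with FPKM values of 3.04 in stem cells, 1.25 on day 3 and 0.786 on day 5. The change by day 3 was 2.42-fold (log2 -1.28 ± 0.53) and the next one (log2 -0.67 ± 0.66) about as large as its error. MYB lies on chromosome 6 (135502453 to 135540311, hg19). Its paralogue MYBL2, which acts in cycling cells, carried 94.5% of the summed FPKM of MYB, MYBL1 and MYBL2 in every group. MYBL2 stood at 75.3 on day 0 and 77.2 on day 3 and fell to 41.1 on day 5 (log2 -0.91 ± 0.32). MYBL1 rose from 1.36 to 3.22 and fell back to 1.61.

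The upstream windows of MYCN and MYB are set side by side because both hold TTTGGCG, a core of the sites bound by E2F cell cycle factors, which was searched for after the sequences had been seen. Both are 250 bases before the start site from RefSeq (GRCh38.p14, plus strand), at chr2:15940300-15940549 and chr6:135181058-135181307. Capitals mark TTTGGCG and, in MYB, the reverse complement of the forkhead motif GTAAACA.
MYCN: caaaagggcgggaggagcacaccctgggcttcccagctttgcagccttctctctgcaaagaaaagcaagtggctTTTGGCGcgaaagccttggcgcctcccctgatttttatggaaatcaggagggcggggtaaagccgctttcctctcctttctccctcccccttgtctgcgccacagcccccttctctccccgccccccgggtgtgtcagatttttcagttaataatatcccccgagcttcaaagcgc
MYB: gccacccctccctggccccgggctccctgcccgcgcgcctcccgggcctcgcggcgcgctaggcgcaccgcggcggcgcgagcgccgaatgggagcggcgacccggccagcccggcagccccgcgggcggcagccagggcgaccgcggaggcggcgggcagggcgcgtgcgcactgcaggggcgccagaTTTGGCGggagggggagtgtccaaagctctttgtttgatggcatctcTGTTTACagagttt

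TTTGGCG was present in 1.59% and GTAAACA in 2.98% of all windows, on either strand. None of the 5 windows of FOXD3, MYCN, MYB and ETS2 (2 start sites) held CCGGAAGT, the ETS motif (3.42% of all windows), CTTTGAT, the TCF/LEF motif (2.26%), or AACNGNC, the MYB motif (26.9%). Windows of ETS1 and MYC were not used here.

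**Figure D3:**
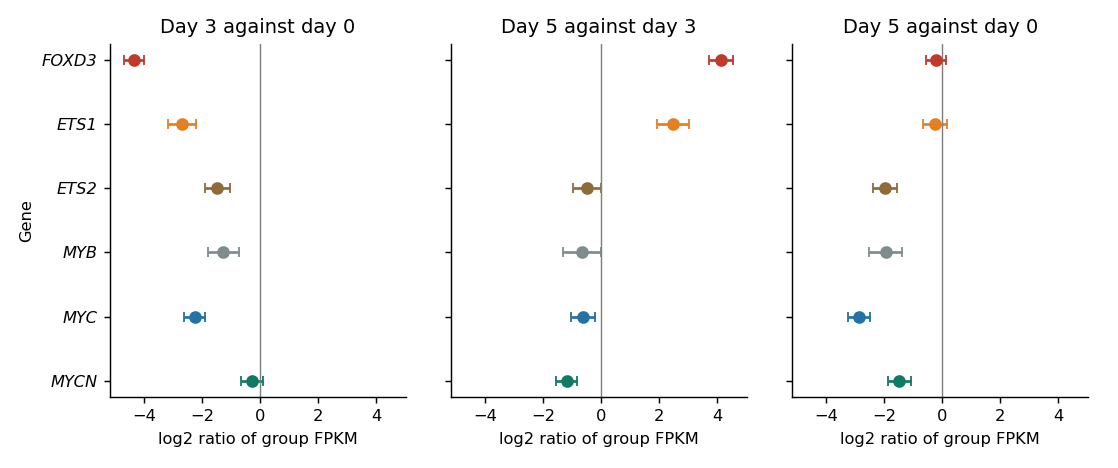
Log2 ratio of group FPKM for each gene in the 3 comparisons, with bars of 1 implied standard error. In the middle panel FOXD3 (4.13) and ETS1 (2.46) lie to the right of 0 and the other 4 genes to the left, and in the right panel the bars of FOXD3 and ETS1 cross 0.

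Set against the table as a whole, 5 of the 6 genes were called lower on day 3 than on day 0, where 11.6% of 16231 tested genes were lower and 8.96% higher. From day 3 to day 5, 2 of the 6 were called higher (background 5.93% of 15932) and 1 lower (background 6.68%). From day 0 to day 5, 4 of the 6 were called lower (background 14.7% of 16409, with 12.2% higher). The genes had been chosen on these contrasts, so nothing is read from the shares.

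Of 15564 genes tested in both steps, 175 were called lower and then higher (1.12%), FOXD3 and ETS1 among them. The mirror pattern, higher and then lower, had 276 genes (1.77%). ETS2, MYB and MYC belong to the 7.29% that were lower on day 3 without a later call, and MYCN to the 3.39% that were lower in the later step alone. By that depth, FOXD3 ranked 1 of the 175 (log2 4.13) and ETS1 ranked 19 (log2 2.46), against a median of 1.43. Both steps share the day 3 libraries. Of the 175 genes, 121 did not differ by call between day 0 and day 5, 39 were lower on day 5 and 15 higher. FOXD3 and ETS1 are among the 121.

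**Figure D4:**
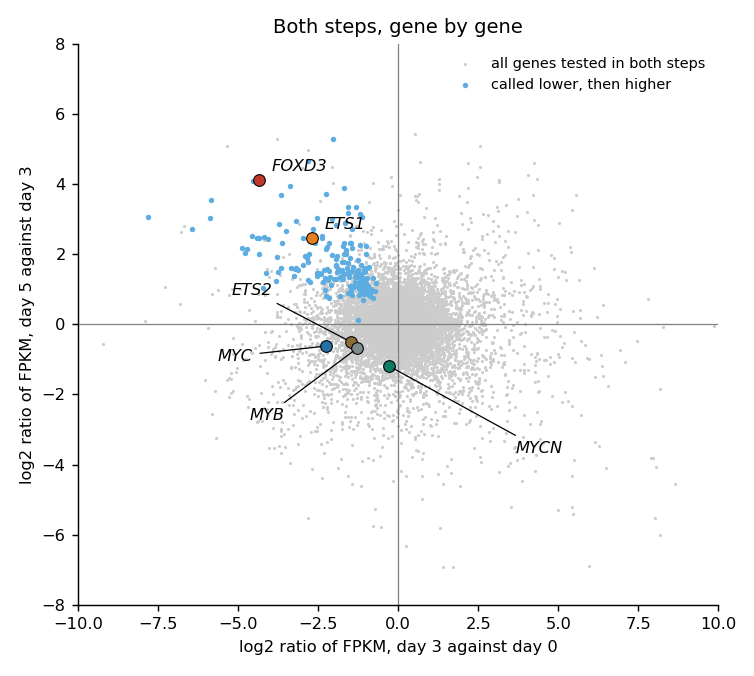
Log2 ratio of day 5 against day 3 plotted over that of day 3 against day 0 for 15470 genes (93 with a group listed at 0 and 1 beyond the axes are not drawn), with the 175 genes called lower and then higher in blue. FOXD3 (-4.35 and 4.13) sits at the outer edge of the blue cloud and ETS1 (-2.71 and 2.46) inside it, while MYC, MYB, ETS2 and MYCN lie below the horizontal line.

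Profiles like those of the 6 genes were sought among 14093 tested genes, by the Euclidean distance in log2(FPKM + 1) over the 3 groups. No gene came within 0.5 of FOXD3 or ETS1, against 7 for MYC, 21 for MYCN, 41 for ETS2 and 158 for MYB. This distance takes in level as well as shape, so the counts do not rank how unusual a shape is. Nearest to FOXD3 were the small RNAs SNORD9 (15.8, listed at 0 on day 3, then 15.0) and SNAR-C4 (19.3, 3.55 and 12.4), whose FPKM is uncertain at their length, and then ETV1, itself an ETS factor, at a distance of 1.40. Nearest to ETS1 were IL17RD (7.77, 2.09 and 6.32), a membrane antagonist of FGF signalling, RLN2 and TFPI2. MYCN was closest to SLC9A3R1, the ribosome biogenesis gene BOP1 (57.7, 50.1 and 25.8) and SNHG12. PCOLCE and CAPG were among the 3 genes closest to MYC. ETS2 was closest to ProSAPiP1, PLSCR1 and DENND4B, and MYB was closest to ZNF165, PMEPA1 and HIST1H2AG.

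Among the 26 other ETS family genes, 5 of 21 tested fell by day 3 (11.6% of all genes), and 3 of 18 rose from day 3 to day 5 (5.93% of all genes). ETV1 and ETV5 of the PEA3 group, which respond to FGF and ERK, were called lower and then higher, as ETS1 was. ETV1 went from 13.9 to 3.63 (log2 -1.94 ± 0.43) and back to 11.5 (log2 1.66 ± 0.48), without a call between day 0 and day 5. ETV5 went from 6.39 to 0.480 and 3.47, and was lower on day 5 than on day 0 (log2 -0.88 ± 0.47). ETV4, the remaining PEA3 gene, fell without a later call, from 50.3 to 3.56 and 2.42. ELF3 and SPIB fell early as well, and ELK3 rose late, from 2.18 to 5.69 (log2 1.38 ± 0.50). The widely expressed GABPA (13.3, 15.0 and 16.1), ERF and ELK1 passed in neither step. The median change of the tested ETS genes in log2(FPKM + 1) was -0.20 by day 3 and -0.01 in the later step, against 0.03 and -0.04 over all tested genes.

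Genes induced through ERK, the kinase that acts on ETS1 and ETS2, fell in 12 of 15 by day 3, against 11.6% of all genes, with a median of -1.54. FOS fell from 44.1 to 0.748 (log2 -5.88 ± 0.50), the ERK phosphatase DUSP6 from 61.2 to 3.52 and EGR1 from 63.0 to 5.12. In the later step 5 rose and 2 fell (5.93% and 6.68% of all genes), with a median of 0.42. The 5 that fell and then rose were DUSP4, DUSP6, EGR1, FOS and IER3. The V shape of FOXD3 and ETS1 was shared by 5 of these 15 genes, against 1.12% of genes tested in both steps. Another 6 fell by day 3 without a later call, as ETS2, MYB and MYC did (7.29% of such genes). DUSP5 fell in both steps. Between day 0 and day 5, 11 of the 15 were called lower (14.7% of all genes) and 0 higher (12.2%). The list was made with earlier results of these data known, so nothing is read from these shares. In the 5 genes with the V shape, the return was mostly partial. DUSP4 (4.46, 1.37 and 3.69) was the 1 of the 5 without a call between day 0 and day 5, and EGR1 reached 25.7 and FOS 6.17.

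Of 24 tested neural crest specifiers 16 rose and 1 fell by day 3 (8.96% and 11.6% of all genes), and of 26 tested 14 rose and 1 (KIT, from 9.93 to 4.65) fell from day 3 to day 5 (5.93% and 6.68%). On day 3, when FOXD3 was at 0.876 and ETS1 at 1.11, PAX3 had risen from 0.253 to 3.36 and MSX1 from 0.503 to 4.41, and both rose again to 39.9 and 73.2. The nuclear receptors NR2F1 and NR2F2 rose to 74.8 and 39.0 on day 5, and ZEB2 was up early, from 0.434 to 25 on day 3. In the list, ID1 was the 1 gene that dipped, from 119 to 11.3 (log2 -3.40 ± 0.46) and then to 174 (log2 3.93 ± 0.37). It encodes an inhibitor of basic helix-loop-helix factors and is a target of BMP signalling. SOX10 went from 1.82 to 3.87 and 6.33, with a call in the earlier step and none in the later one (log2 0.71 ± 0.43).

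**Figure D5:**
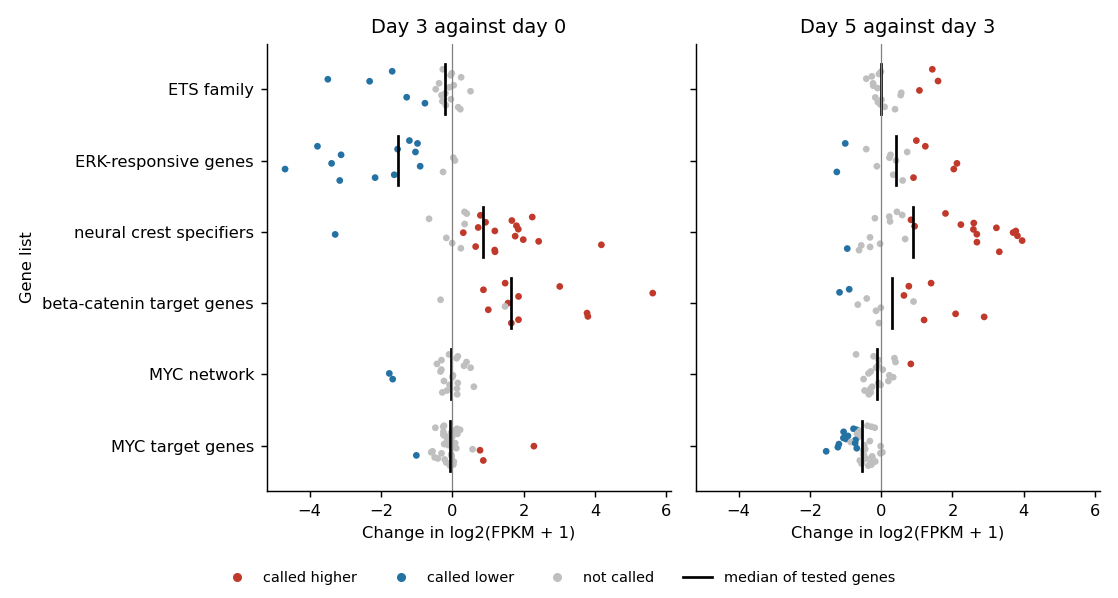
Change in log2(FPKM + 1) of the tested genes of 6 lists, without the 6 described genes, from day 0 to day 3 (left) and from day 3 to day 5 (right). Each point is a gene, red where called higher, blue where called lower and grey otherwise, and the black bar is the median. ERK-responsive genes lie left on day 3 (median -1.54), and MYC target genes shift left in the later step (median -0.53).

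MYC is a classical target of beta-catenin, and most of the other targets tested went the opposite way to MYC by day 3. A link of beta-catenin to the level of MYC in these cells was not tested. Of 13 tested, 11 rose (8.96% of all genes), with SP5 going from 1.42 to 118, APCDD1 from 1.91 to 39.5 and CCND1 from 32.6 to 105. In the later step 6 of 14 rose (5.93% of all genes), among them AXIN2 (26.2 to 70.9), and 2 fell (6.68%). PVT1, the noncoding neighbour of MYC, went from 7.81 to 5.52 and 3.45, and was called in the comparison of day 5 with day 0 (log2 -1.18 ± 0.50).

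Among partners and regulators of MYC proteins, 2 of 22 fell by day 3 and 1 rose in the later step, shares near those of all genes (11.6% and 5.93%). MAX, the common partner, stood at 16.7, 18.7 and 16.0. MLXIPL, a glucose-responsive factor of the extended network, fell from 4.76 to 0.690, and USP28, a deubiquitinase known to stabilise MYC, from 28.1 to 8.12 (log2 -1.79 ± 0.41). The MAX-binding antagonist MXI1 rose from 3.78 to 7.51 in the later step (log2 0.99 ± 0.48), a call that is lost with a q threshold of 0.01. MXD1 and MXD4, which act likewise, were higher on day 5 than on day 0, at 1.23 against 0.589 and 17.7 against 9.77, and neither is called at that threshold. MXD3 (38.3, 30.8 and 29.4) and MNT (4.48, 5.87 and 5.43) were not called in any comparison. MYCL1 was lower on day 5, at 8.19 against 15.0.

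Of 40 textbook MYC target genes, many of them of ribosome biogenesis, 3 rose and 1 fell by day 3 (8.96% and 11.6% of all genes), with a median change of -0.07. With a q threshold of 0.01, 1 rose and 1 fell. ODC1, the entry enzyme of polyamine synthesis, rose from 61.3 to 303, TFRC and CCND2 rose too, and SHMT2 fell from 151 to 74.7. From day 3 to day 5, 12 of 40 fell (6.68% of all genes) and 28 were not called, with a median of -0.53 against -0.04 for all tested genes. TERT, the telomerase catalytic subunit, fell from 5.41 to 1.20 (log2 -2.17 ± 0.43), the spermidine synthase SRM from 126 to 53.5 (log2 -1.23 ± 0.27) and MYBBP1A from 26.7 to 11.2. NOP56, NOP58, NOP16, BOP1, RRP9, RRP12, WDR43, POLR1B and CAD were the others. The count of 12 became 7 with a q threshold of 0.01. MYC was called lower in the earlier step and MYCN in the later one, and a link of either to these genes was not tested.

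Blood and endothelial cells also express MYB and ETS1. The called blood markers rose, and the called endothelial markers moved both ways. PTPRC was at most 0.0328, PECAM1 at most 0.0784 and CDH5 at most 0.124 in any group. The 10 blood markers summed to between 2.55 and 3.72, with ITGA2B at 2.70, 1.78 and 1.56 and GATA2 at 1.55 on day 5 as the values of at least 1. From day 3 to day 5, GATA2 (from 0.227) and CD34 (0.133 to 0.458) were called higher, 2 of 3 tested (5.93% of all genes). Both were also higher on day 5 than on day 0, 2 of 4 tested (12.2% of all genes). The calls of CD34 are lost with a q threshold of 0.01. No blood marker was called lower. The 8 endothelial markers summed to between 18.9 and 35.8, mostly KDR and TEK. KDR fell from 22.2 to 3.14 by day 3, TEK rose from 12.2 to 21.5, and VWF rose from 0.320 to 2.11 and fell to 0.697. The part of these cells in the levels of MYB and ETS1 was not tested. The 7 neural progenitor markers summed to 60.0 in stem cells, 332 on day 3 and 146 on day 5. By day 3, 6 of the 7 rose (8.96% of all genes). In the later step SOX1, SOX21 and DBX1 fell (6.68% of all genes). PAX6 rose further, from 1.86 to 15.3 (5.93% of all genes higher), and LIX1, NES and HES5 were not called. The 6 neuron markers summed to 206, 323 and 146, mostly TUBB3 (202, 292 and 136), whose rise by day 3 was not called. Of 5 tested, 3 rose by day 3 (8.96% of all genes). In the later step 3 fell (6.68%) and 1, ELAVL4, rose (5.93%), from 0.249 to 0.883. The progenitor and neuron sums were highest in the group where FOXD3 and ETS1 were lowest. Their part in the dip was not tested.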

How the data were processed

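A single deposited table was used, in the layout of Cuffdiff gene tests. It lists 23284 genes once for each of 3 comparisons (69852 rows). Per the submitters' processing notes, TopHat2 2.0.10, TopHat and Cuffdiff 2.1.1 were run on build hg19. For annotation and strand, the sources used here name nothing. Per the file headers, the authors' FPKM values are 1 per gene and group, so no value per library was analysed. The deposited test statistic was used as a score, and log2 ratios (computed here from FPKM) divided by it gave the implied standard error. The authors' deposited p-values and q-values were taken as they stand. The q equals a Benjamini-Hochberg adjustment over 48572 tested rows, with differences of at most 5.25e-07. A p of 5e-05, the smallest, occurs in 4078 rows. Since widths match RefSeq lengths in 1901 genes with starts counted from 0, against 253 otherwise, positions are printed counted from 1.

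The 6 genes and all lists were chosen with earlier results of these data known. Calls use a q below 0.05 among rows with status OK. List medians use a pseudocount of 1. Genes named are the 6, up to 3 called genes per list and comparison (by size of change, FPKM at least 1), the 3 nearest profiles per gene (1 is not reported here), neighbouring transcripts, and genes needed to make a count clear. GABPA, ERF, ELK1, MAX, PAX3, SOX10 and CCND1 were chosen after their values were seen. Protein sequences were not used. The adjustment was tested on simulated data, and the motif search on short made-up sequences. Work used Python 3.11.15, pandas 2.3.3 and scipy 1.17.1.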

Additional observations from a re-analysis of the deposited data

How the results depend on the processing

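The levels rest on 1 value per group, so depth and replicate spread set no limit that can be stated here, and no library could be left out. No paired analysis was possible because the table holds no value per library. A pseudocount of 1 shrank the log2 change of FOXD3 to -3.33 by day 3 and 3.12 from day 3 to day 5, of ETS1 to -1.97 and 1.76, and of MYB to -1.18 from day 0 to day 5, by construction. The other 85 of 90 recomputed changes of the 6 genes moved by less than their implied error, including a rescaling without small RNA genes that shifted all genes by up to 0.17 (log2, over the whole time course), and no change of a called gene switched direction. With a q threshold of 0.01, 946 genes were higher by day 3, 586 higher and 619 lower in the later step, 84 dipped and 164 peaked on day 3, and 7 MYC target genes fell in the later step. With a normal p of the test statistic the numbers were 915 higher by day 3, 530 higher in the later step, 1238 higher from day 0 to day 5, 83 that dipped and 7 MYC target genes. Of the list counts recomputed under the other settings, 46 moved and 314 stayed the same or close to it. Single calls given above that are lost with a q threshold of 0.01 include SNAI1, ETV5 and MYCL1 between day 0 and day 5. SOX10 by day 3 and IER3 in the later step are lost too. Where the p rather than the threshold changed, the cause was not tested.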

Other observations

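The genes next in depth after FOXD3 among the 175 that dipped on day 3 were GDA (0.801, 0.0341 and 0.582), C8orf47 (1.90, 0.150 and 1.95), SYT4 (3.12, 0.0544 and 0.635) and then ID1, singled out after their values were seen. The protocadherin PCDH10 ranked 8 (3.43, 0.378 and 2.94). The shallowest, INPP5D, is called higher from day 3 to day 5 in the authors' deposited table although its FPKM went from 3.53 to 3.83 only (log2 0.12), so the class holds at least 1 gene whose call and values do not match. MYL12B, a myosin light chain gene, and YAP1, the Hippo effector, also dipped, from 195 to 89.8 and 145, and from 35.6 to 21.7 and 48.8.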
